A study of Mus musculus with 7 samples.

Results

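The epithelium of the choroid plexus was followed in forebrain RNA through 10 genes by which it is known: Ttr, Sostdc1, Folr1, Kl, Kcnj13, Kcne2, Clic6, Slc4a5, Otx2 and Tmem72. They were listed by name as markers of these cells, with earlier results of these data known. They are 10 of the 47729 genes in the table, and all 10 were among the 19684 genes with enough counts to be tested. Libraries were made from forebrains dissected at postnatal day 15 from F1(C57BL/6 X 129Sv) mice. The 4 control libraries came from Lhx6+/- mice, which keep 1 working copy of Lhx6, and the 3 mutant libraries from Lhx6-/- mice, which keep none, so no library has both copies and no wild-type forebrain was compared. Lhx6 is the homeobox factor of interneurons born in the medial ganglionic eminence. The allele is a germline one (Lhx6tm2Vpa), so it is carried by every cell, the choroid plexus included. Each library pooled 2 animals, of either sex or both, and error between libraries is therefore error between pools. Libraries are named by genotype and by the number in their column: 2, 3, 10 and 11 for controls and 5, 12 and 13 for mutants.

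The choroid plexus hangs in the brain ventricles as a folded sheet of epithelium over leaky capillaries, and it makes most of the cerebrospinal fluid. Its cells are polarised: channels, exchangers and carbonic anhydrases move ions and water into the ventricle, receptors carry vitamins and hormones from the blood, and secreted carriers and growth factors reach the brain through the fluid. The sheet develops from the dorsal midline of the neural tube, where Otx2 is needed for its formation and upkeep. In forebrain RNA these cells are a small minority next to neurons and glia. In such bulk RNA, fewer choroid plexus cells and less RNA of a gene per cell cannot be told apart, and how much plexus each dissection kept is not given in the sources used here.

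To show the regulatory sequence that members present to the factor among them, the 250 bases before a start site were read from RefSeq promoter windows (GRCm38.p6) and searched on both strands for TAATCC, the 6-base core bound by Otx factors. Windows were matched for 6 of the 10 genes, Kcnj13, Kcne2, Kl, Slc4a5, Tmem72 and Otx2, with 10 start sites between them. The motif lay in 1 of the 10 windows, at a start site of Otx2 itself, and 6.25% of all 32851 windows held it. A match describes the letters and is not a bound site. The Otx2 window (chr14:48665110-48665359, minus strand) is shown for its match, in capitals as its reverse complement, at positions -211 to -206 from the start. Those of Kl (chr5:150952357-150952606, plus strand), Kcne2 (chr16:92292139-92292388, plus strand) and Kcnj13 (chr1:87394730-87394979, minus strand) are shown, with no match, as a receptor and channel members to set beside it. All are written 5′ to 3′.
Otx2: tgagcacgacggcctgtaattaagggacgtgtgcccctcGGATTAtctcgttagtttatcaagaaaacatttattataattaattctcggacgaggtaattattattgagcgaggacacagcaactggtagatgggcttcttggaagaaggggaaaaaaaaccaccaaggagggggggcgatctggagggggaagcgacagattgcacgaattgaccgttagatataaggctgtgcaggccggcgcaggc
Kl: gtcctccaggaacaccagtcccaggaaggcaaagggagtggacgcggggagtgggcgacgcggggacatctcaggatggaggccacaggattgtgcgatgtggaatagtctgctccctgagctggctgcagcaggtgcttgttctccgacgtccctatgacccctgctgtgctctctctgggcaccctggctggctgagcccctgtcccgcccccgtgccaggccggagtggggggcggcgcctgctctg
Kcne2: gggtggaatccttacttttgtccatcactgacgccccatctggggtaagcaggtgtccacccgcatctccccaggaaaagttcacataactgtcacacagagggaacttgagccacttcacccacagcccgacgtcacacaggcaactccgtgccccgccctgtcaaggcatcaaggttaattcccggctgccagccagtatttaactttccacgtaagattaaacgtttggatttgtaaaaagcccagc
Kcnj13: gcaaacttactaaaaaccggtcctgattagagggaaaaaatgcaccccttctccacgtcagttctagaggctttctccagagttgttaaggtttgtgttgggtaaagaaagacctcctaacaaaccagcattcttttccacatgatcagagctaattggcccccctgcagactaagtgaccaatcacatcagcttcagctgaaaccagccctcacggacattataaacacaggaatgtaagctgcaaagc

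Libraries summed to between 32556304 and 38069151 expected counts. Lhx6 checked the labels: it had 534 ± 58.5 normalized counts in controls (SD, n = 4) and 72.5 ± 3.55 in mutants (n = 3), and no mutant library reached a control. Normalized counts are counts scaled to a common library size. The first principal component of all tested genes, with 39.6% of the variance, separated libraries 2, 3 and 5 from libraries 10 to 13, and each of these runs of numbers held both genotypes. What the library numbers stand for is not given in the sources used here, so values within each run are given beside the pooled ones.

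To ask whether the loss of Lhx6 came with a change in choroid plexus RNA, each gene was compared between the genotypes. None of the 10 genes was called: 0 of 10 had an adjusted p of 0.05 or less in edgeR's quasi-likelihood test, against 4.85% of all tested genes in either direction and 1.87% lower in mutants. The count was also 0 of 10 in limma-voom, which called 4.89% of genes, and in DESeq2, which called 9.17%. At an unadjusted p of 0.05 or less edgeR held 1 of 10, Folr1, against 18.2% of all tested genes. The libraries of the genotypes overlapped for all 10, whereas they did not overlap for 19.7% of tested genes. The log2 fold change of mutant over control was negative for 8 of 10 and its median was -0.57, beside -0.01 over all tested genes, of which 52.2% were negative. The 8 are not separate evidence of a direction, since the genes share their libraries and moved together in them. Within libraries 2, 3 and 5 alone the median was -0.69, and the pools numbered 10 to 13 gave -0.45, both as differences of mean log2 CPM, the measure used for each within-run value unless stated. It rested on single libraries, at -0.29 without mutant library 5 and -0.91 without mutant library 12.

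**Figure D1:**
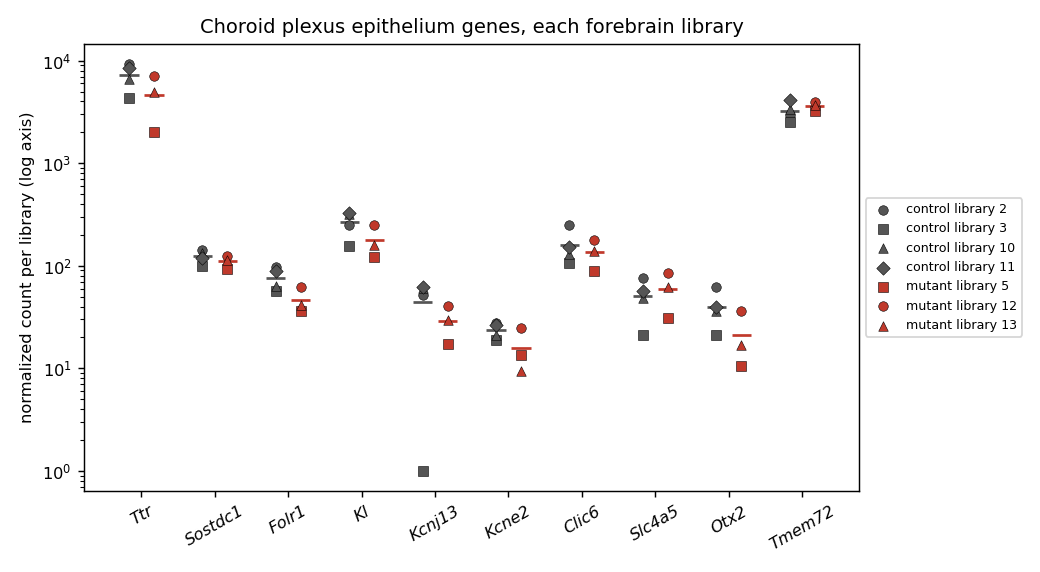
Normalized counts (log axis) of the 10 genes in each of the 7 libraries, controls in grey and mutants in red, with short lines at the genotype means. The genotypes overlap for every gene, Ttr and Tmem72 stand above the others, and Kcnj13 is at 1.00 in control library 3.

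Ttr encodes transthyretin, the thyroxine and retinol carrier that the plexus releases into the cerebrospinal fluid, and it was the most abundant of the 10 genes. It lies on chromosome 18 (GRCm38, 20665250 to 20674324, plus strand, ENSMUSG00000061808). Here and for the genes that follow, controls are given in the order 2, 3, 10, 11 and mutants in the order 5, 12, 13. Controls held 9219, 4290.0, 6652 and 8539 normalized counts of it, and mutants held 1997, 7040.2 and 4940. Mutant library 5 was the lowest of all and mutant library 12 was above 2 of the 4 controls. Means were 7175 ± 2209 in controls and 4659 ± 2533 in mutants, or 64.9% of control. The log2 fold change was -0.62 with an SE of 0.40 and a 95% interval of -1.53 to 0.29 (edgeR, adjusted p = 0.485), so that a marked fall and a small rise both lie inside the interval. Without mutant library 5 it was -0.25, and without mutant library 12 it was -1.05. From the lowest to the highest library Ttr spanned 4.62-fold, and it made up between 0.00578% and 0.0258% of a library's counts.

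The other secreted product, Sostdc1 (chromosome 12, 36314169 to 36318452, plus strand), encodes an antagonist of BMP and Wnt signals. Its counts were 144, 99.4, 134 and 118 in the 4 controls, and 93.9, 124 and 115 in the 3 mutants. It was among the steadiest of the 10 genes, with 1.53-fold between its extremes, and its highest library was control 2 and its lowest mutant 5, as for Ttr. Mutants over controls gave a log2 fold change of -0.16, with an interval of -0.57 to 0.25 (adjusted p = 0.729).

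Folr1 and Kl are the receptors of the group. Folr1 (chromosome 7, 101858331 to 101870788, minus strand) encodes the high-affinity folate receptor, with which the plexus passes folate from blood to fluid. It held 96.5, 56.2, 63.3 and 88.4 counts in the 4 controls, and 36.4, 62.1 and 41.7 in the 3 mutants. Mutants 5 and 13 lay under every control and mutant 12 lay between controls 3 and 10. Its mean was 61.4% of control, and the log2 fold change of -0.70 had the one interval of the 10 that left out 0, at -1.34 to -0.07. The unadjusted p was 0.0329 and the adjusted p 0.221 (edgeR), and over all fits the adjusted p of Folr1 ran from 0.136 to 0.514.

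Kl (chromosome 5, 150952607 to 150993817, plus strand) encodes klotho, a co-receptor for FGF23 that is also shed into the fluid. It had 252, 157, 319 and 329 counts in the 4 controls, and 123, 248 and 159 in the 3 mutants. Only mutant 5 lay under the lowest control, library 3, and mutant 13 lay just above it. On the log2 scale mutants differed from controls by -0.58, with an interval of -1.28 to 0.11 (adjusted p = 0.372), and it was -0.69 and -0.70 within the runs of library numbers.

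Of the channels and transporters, Kcne2 (chromosome 16, 92292389 to 92298129, plus strand) is a regulatory subunit of potassium channels on the ventricular face. It was scarce, at 27.4, 19.1, 21.1 and 26.4 counts in the 4 controls, and 13.4, 24.8 and 9.47 in the 3 mutants. It was the one gene with its lowest value in mutant 13, and mutant 12 again stood among the controls. Its log2 fold change was -0.56, with an interval of -1.42 to 0.29 (adjusted p = 0.502).

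Clic6 (chromosome 16, 92485736 to 92541243, plus strand) belongs to the chloride intracellular channel family. Its counts were 250, 105, 130 and 153 in the 4 controls, and 89.1, 177 and 138 in the 3 mutants. Control 2 was far above the other controls, and mutants 12 and 13 lay within the control range. The log2 fold change of -0.25 (interval -0.99 to 0.50, adjusted p = 0.775) turned to 0.06 without control library 2, and to 0.14 within libraries 10 to 13.

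Slc4a5 (chromosome 6, 83219828 to 83304945, plus strand) encodes a sodium bicarbonate cotransporter of the ventricular membrane. It had 75.7, 21.1, 48.9 and 56.9 counts in the 4 controls, and 30.7, 85.9 and 61.5 in the 3 mutants. Its highest library was a mutant, number 12, and its lowest a control, number 3. Its log2 fold change was 0.23, with a wide interval of -0.79 to 1.25 (adjusted p = 0.856), and it was below 0 within libraries 2, 3 and 5, at -0.38, without control library 3, at -0.03, and without mutant library 12, at -0.13.

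Kcnj13 (chromosome 1, 87386363 to 87394729, minus strand) encodes the inward rectifier Kir7.1. Controls 2, 10 and 11 held 51.5, 61.4 and 62.0 counts, and control 3 held 1.00, while mutants 5, 12 and 13 held 17.2, 40.4 and 29.4. The 3 mutants lay under the 3 high controls and above the low one. Its log2 fold change was -0.60 with an interval of -2.44 to 1.24 (adjusted p = 0.778). It was -1.01 without control library 3 (adjusted p = 0.126) and 0.25 in limma-voom, which works on logs, and within libraries 2, 3 and 5 its sign depended on the measure. The difference of mean logs there was 0.60, while the log2 ratio of mean counts was -0.61 (26.3 in the controls, 17.2 in mutant 5). Counts of this gene are uncertain: 49.1% of its exon bases lie over exons of Gigyf2 on the other strand, and 44.0% of its 36-base words, the length of a read, also occur in another gene, most in Gigyf2. Gigyf2 held between 2168 and 2693 normalized counts in every library, far above Kcnj13. In control library 3 Gigyf2 held 2444 counts.

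Otx2 (chromosome 14, 48657679 to 48667644, minus strand) is the transcription factor of the group. It held 61.4, 21.1, 36.5 and 39.6 counts in the 4 controls, and 10.5, 36.2 and 17.0 in the 3 mutants. Mutants 5 and 13 lay under every control and mutant 12 lay above control 3. The log2 fold change of -0.90 was the lowest of the 10, with a mean at 53.6% of control, an SE of 0.48 and an interval of -1.99 to 0.20 (adjusted p = 0.383). It was -0.56 without mutant library 5 and -1.51 without mutant library 12.

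Tmem72 (chromosome 6, 116679063 to 116716913, minus strand) encodes a membrane protein known mainly from the choroid plexus and kidney. It held 2954.5, 2498, 3384 and 4111 counts in the 4 controls, and 3210.0, 3928 and 3674 in the 3 mutants. It was thus second to Ttr in counts, and its mutants lay inside the control range, with mutant 5 above 2 controls. Mutants over controls gave a log2 fold change of 0.15, with an interval of -0.21 to 0.52 (adjusted p = 0.696). The last exon makes up 95.9% of its 17177 exon bases, and 33.5% of the 36-base words of that exon also occur in other genes, against 0 of 685 words before it. The shared words were spread over 228 genes. Whether reads of those genes were counted under Tmem72 was not tested.

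**Figure D2:**
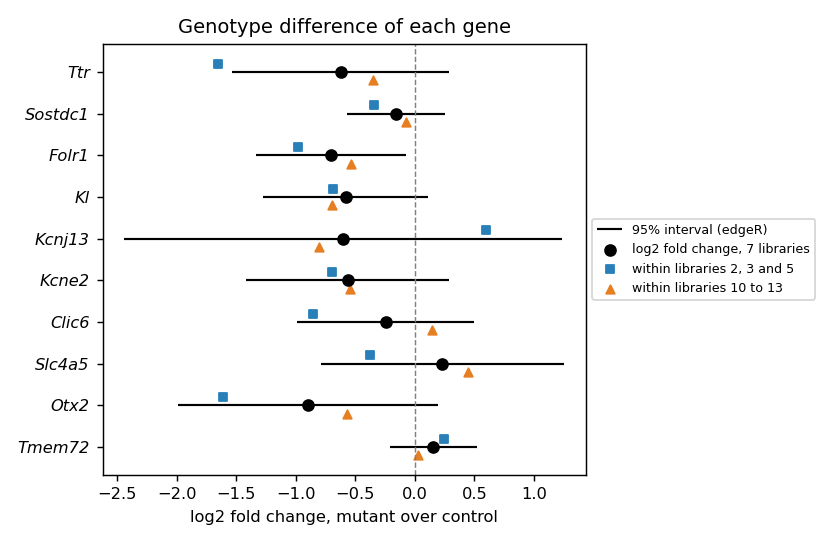
Log2 fold change of mutant over control (black points) with its 95% interval from edgeR for each gene, and the differences within libraries 2, 3 and 5 (blue squares) and within libraries 10 to 13 (orange triangles). Within-run values are differences of mean log2 CPM. All intervals but that of Folr1 (-1.34 to -0.07) cross 0, and 6 of 10 genes lie below 0 in both runs, or 7 by the ratio of mean counts, which puts Kcnj13 below 0 too.

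The libraries of a genotype differed widely and in the same order for most of the genes. Of the 10 genes, 6 were lowest in mutant library 5 and 3 in control library 3, and 6 were highest in control library 2. The mean of the 10 genes on the log2 scale, relative to its average over libraries, was 0.56 and 0.44 in controls 2 and 11, 0.26 in control 10 and 0.32 in mutant 12, and it was -0.21 in mutant 13, -0.68 in control 3 and -0.70 in mutant 5. On this mean control 3 stood beside mutant 5, and mutant 12 stood among the other controls. The mean gives each gene the same weight, so the 1.00 count of Kcnj13, an uncertain one, lowers control 3. By Ttr, control 3 (4290) lay nearer mutant 13 (4940) than mutant 5 (1997). Summed counts of the 8 genes without Ttr and Tmem72 were 480 in control 3, 414 in mutant 5 and 571 in mutant 13. Mutant 12 lay inside the control range for 9 of 10 genes, and mutant 5 lay under every control for 7.

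Relative spread among controls was wide for the group. The median coefficient of variation over control libraries was 30.4% for the 10 genes and 15.1% for all tested genes, and all 10 were above that median. The median biological coefficient of variation fitted by edgeR was 0.31 beside 0.17 for all tested genes. Kcnj13 had the widest spread, at 66.0%, and Sostdc1 the narrowest, at 15.7%.

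The genes varied with Ttr across the 7 libraries, as a description over points that share depth, dissection and pool. The Pearson correlation of log2 CPM (counts scaled to the same library total) with Ttr was 0.94 for Otx2, 0.88 for Folr1, 0.87 for Kl, 0.86 for Sostdc1 and 0.85 for Clic6. It was 0.69 for Kcne2 and for Slc4a5, 0.55 for Kcnj13 and 0.32 for Tmem72. With genotype means removed it was 0.94 for Slc4a5, 0.92 for Otx2, 0.88 for Clic6, 0.86 for Folr1, 0.84 for Sostdc1 and 0.82 for Kl. It was then 0.66 for Kcnj13, 0.65 for Tmem72 and 0.55 for Kcne2. The size of the swing differed between genes. For a change of 1 in Ttr on the log2 scale, Kcnj13, whose counts are uncertain, changed by 1.13 and Otx2 by 0.99. Kl changed by 0.63, Slc4a5 by 0.63, Folr1 by 0.58, Clic6 by 0.54 and Kcne2 by 0.46. Sostdc1 changed by only 0.25 and Tmem72 by 0.10.

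**Figure D3:**
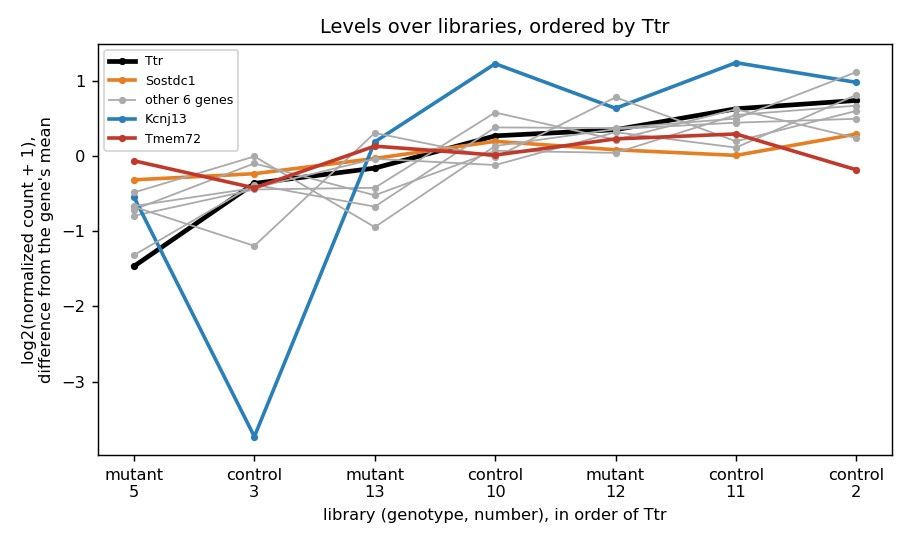
Level of each gene (log2 of normalized count + 1, as the difference from its own mean) in the 7 libraries, ordered by Ttr from mutant 5 to control 2. Otx2 and the other grey genes follow Ttr, though Slc4a5 and Kcne2 do so less closely (r = 0.69 each). Sostdc1 and Tmem72 vary least, Kcnj13 is lowest in control 3, and control and mutant libraries alternate along the axis.

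Levels were compared between genes per length, as CPM per kilobase of exon, in controls. Ttr was highest, at 165 ± 50.8 (SD, n = 4), Tmem72 was next, at 5.29 ± 1.12 and Sostdc1 followed at 1.98 ± 0.31. The lowest control library of Sostdc1, at 1.59, lay below the highest of Clic6, at 1.79, so these are not ordered. Clic6 at 1.15, Kcnj13 at 0.97, Folr1 at 0.93 and Kl at 0.80 overlapped in their libraries and have no order among them. Kcne2 at 0.37, Otx2 at 0.33 and Slc4a5 at 0.24 also overlapped. No control library of Ttr reached Tmem72 or the reverse, and the same held between Tmem72 and Sostdc1 and between Kl and Kcne2. The groups that hold Kl and Kcne2 were not apart as wholes. The highest control library of Otx2, at 0.51, lay above the lowest of Kl, at 0.47. The lowest of Kcnj13, at 0.02, lay below the lowest of Slc4a5, at 0.10. Lengths of the longest transcript in place of all exons raised Folr1 to 1.54, Kl to 1.27 and Otx2 to 0.49, so that the order below Tmem72 depends on the transcript taken.

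A further 41 genes of the choroid plexus epithelium were looked at, of which 39 were tested (all but Slco1a5 and Lmx1a, by their counts). Of these 39, 1 was lower in mutants, Col8a1, and 0 were higher, against 4.85% of all tested genes. At an unadjusted p of 0.05 or less there were 6, or 15.4%, against 18.2% of all tested genes. The genotypes did not overlap for 5 of 39, or 12.8%, against 19.7% of all tested genes. The median log2 fold change was -0.14, with 25 negative and 14 positive. By role the median was 0.02 for 15 genes of ion, water and solute transport, -0.14 for 11 secreted products, -0.18 for 2 receptors and -0.35 for 6 genes of junctions and cytoskeleton.

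Col8a1, a short-chain collagen of basement membranes, had 238, 216, 210.1 and 188 counts in the 4 controls, and 133, 148 and 111 in the 3 mutants. Every mutant lay under every control. The log2 fold change was -0.71 ± 0.15 (SE, edgeR, adjusted p = 0.0333). Leaving out any 1 library left an adjusted p between 0.0507 and 0.158, and without the filter on low counts it was 0.0598. It did not follow the 10 genes over libraries, with r = 0.38. Collagens of this kind are also made by cells of blood vessels and other tissue, so the gene does not mark the plexus alone.

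The other 4 genes whose genotypes did not overlap had opposite signs. Enpp2, the secreted enzyme autotaxin that is abundant in the plexus and also in oligodendrocytes, had 8146, 8035, 10914 and 11381 counts in the 4 controls, and 4730.3, 7854 and 6827 in the 3 mutants, with a log2 fold change of -0.57 (adjusted p = 0.160 by edgeR, and 0.0377 by DESeq2). The other three had higher values in every mutant library than in any control: Wfikkn2, a secreted protease inhibitor domain protein, with a log2 fold change of 0.61 (adjusted p = 0.0927), Sulf1, an extracellular sulfatase, of 0.45 (adjusted p = 0.163), and Slc29a4, a monoamine transporter, of 0.43 (adjusted p = 0.0715 by edgeR, and 0.0132 by DESeq2). When edgeR also fitted the run of numbers, it called Col8a1, Enpp2, Slc29a4 and Sulf1, and still none of the 10 genes. These 4 are 10.3% of the 39, and that fit called 11.2% of all tested genes.

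The 39 further genes were also compared with the 10 over the libraries. The correlation with the mean of the 10 genes was over 0.8 for 10 of 39 further genes, or 25.6%, and for 3.35% of the other tested genes. The median r was 0.47 for the 39 and 0.009 for the other tested genes. It was below 0 for 6 of 39 and for 49.4% of the others, so the list did not follow the 10 genes as a whole. Among the genes over 0.8, r was 0.96 for F5 (coagulation factor V) and 0.92 for 1500015O10Rik (augurin, a secreted peptide precursor). It was 0.88 for Cldn2 (the tight junction claudin of leaky epithelia) and 0.87 for Aqp1 (the water channel of the ventricular membrane). For Trpm3 (a cation channel) it was 0.87, and for Prlr (the prolactin receptor) 0.86. F5 had 89.9, 50.2, 79.6 and 107 counts in the 4 controls, and 42.1, 76.6 and 58.7 in the 3 mutants. For F5, control 3 stood near mutant 5 and mutant 12 near control 10. Aqp1 had 51.2 counts in control 3 and 65.1 in mutant 5, and between 109 and 124 in the others. Cldn2 had 58.5 ± 21.1 in controls and 29.9 ± 9.17 in mutants, with a log2 fold change of -0.97 (adjusted p = 0.192). Aqp1 had a log2 fold change of 0.02 (adjusted p = 0.985), with the sign changing under 5 of the alternatives.

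**Figure D4:**
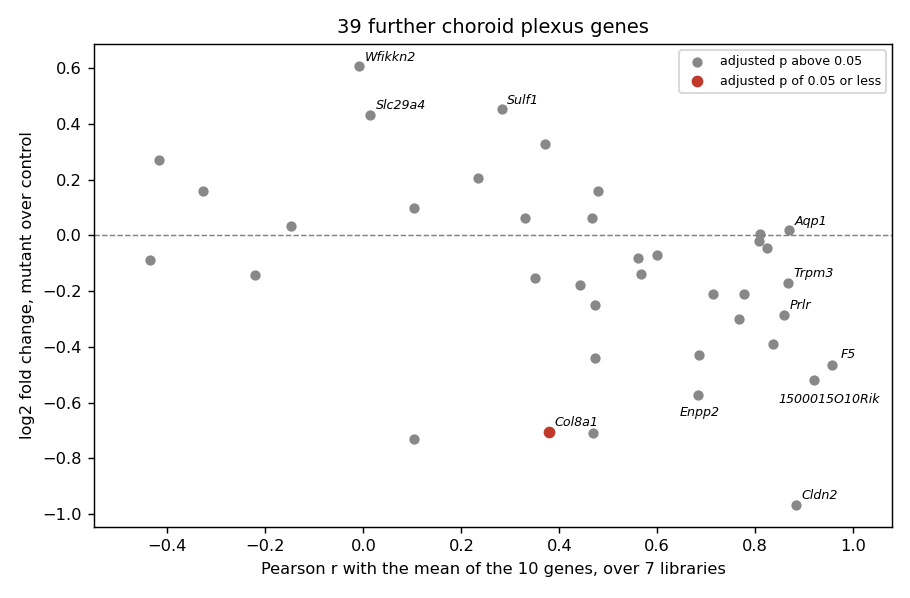
The 39 further choroid plexus genes by their Pearson r with the mean of the 10 genes over 7 libraries (horizontal axis) and their log2 fold change of mutant over control (vertical axis), with Col8a1, the one gene past an adjusted p of 0.05, in red. F5, 1500015O10Rik and Cldn2 combine a high r with a negative fold change, and Aqp1 sits at the same r near 0.

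With Ttr alone as the pattern, r was over 0.8 for 7 of 39 further genes and for 2.48% of the others, and with Tmem72 and Kcnj13 left out of the 10 it was so for 5 of 39 and 2.27%. These 2 patterns were added after the data were seen. Among all tested genes outside the 10, the patterns most like theirs were those of Rhpn1 (r = 0.99), Amotl2, Ttll5, Lrfn1, Ttc17, RP23-378L12.4, Bbs1, Olfm2, Sstr4 and Tshr (r = 0.97), and none of these 10 was in the list of 41. Several of them varied little, with an SD of log2 CPM over libraries of 0.07 for Olfm2 and 0.08 for Ttc17, beside 0.76 for Ttr. Likeness was searched over 19674 genes and 7 libraries, so a high r is a description of these libraries.

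Neighbouring tissues that a dissection could take with the plexus were read from marker lists. In ependyma and motile cilia, 0 of 16 tested genes were called, and the summed counts ran from 895 to 1077 in controls and from 860 to 1050 in mutants (r = -0.44 with the mean of the 10 genes). Foxj1, the master factor of motile cilia, had between 205 and 240 counts in controls and between 208 and 255 in mutants. In meninges and fibroblasts, 0 of 12 were called and r was 0.27. In endothelium, 0 of 8 were called, yet 5 of 8 had an unadjusted p of 0.05 or less against 18.2% of all tested genes, the sums were 7052 to 8141 in controls and 9107 to 9892 in mutants, and r was -0.47. In the thalamus list 0 of 7 were called, with r = 0.52. The hypothalamus list held 1 call among 5 tested genes, Gal, the neuropeptide galanin, with 5.76 to 8.77 counts in controls and 54.9 to 61.3 in mutants. The part of Gal and of the endothelial genes in the levels of the 10 was not tested.

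Retinal pigment epithelium also expresses Ttr, Otx2 and Kcnj13, and the pineal gland also expresses Otx2. Of 8 pigment epithelium genes 4 were tested and 0 were called. Rpe65, which defines that tissue, had between 4.39 and 9.32 counts in every library, Tyr between 0 and 9.87 and Mlana between 0 and 5.48, and the summed list ran from 639 to 809 in controls and from 681 to 786 in mutants, mostly as Rlbp1, which glia also express and which was named after its counts were seen. Its sum ran against the 10 genes over libraries, with r = -0.81. Of 6 pineal genes 3 were tested and 0 were called. Tph1 had 4.02 to 9.15 counts in controls and 13.5 to 23.0 in mutants, Aanat 3.01 to 12.1 and 8.52 to 19.2, and Asmt 0 to 3.29 and 0. The pineal sum was 33.1 to 59.2 in controls and 39.8 to 77.6 in mutants, with r = 0.03. In the pituitary list 2 of 7 genes were tested and 0 called, with r = -0.27.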

How the data were processed

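Forebrain RNA of 7 pools was measured, 4 Lhx6+/- and 3 Lhx6-/-. Per the study's methods and the submitters' processing notes, 36-base single-end reads were trimmed with cutadapt 1.9.1, aligned with Bowtie2 2.2.9 to a GRCm38 transcriptome and counted with RSEM 1.2.31, and the authors deposited the expected counts per gene without normalization. RSEM divides a read among the genes it matches. The authors' own comparison of the genotypes, a table of fold changes and p-values, was not used. All columns of single libraries were used (0 unused). A column is headed by genotype and library number only, so sex and RNA quality, recorded per pool, could not be assigned. Replicates of a genotype differed by more than sampling noise (chi-square per degree of freedom 9.36 to 65.9), and each counted once. Labels do not say that pools came from separate litters, so p-values measure the spread between these pools.

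Expected counts were rounded, and those genes that reached 10 counts in 3 or more libraries were scaled by TMM and compared in R 4.3.3 with edgeR 4.0.16 (quasi-likelihood F-test), with Benjamini-Hochberg adjustment over all 19684 genes and a threshold of 0.05. SE was taken as the size of the log2 fold change divided by the root of F. Log2 CPM used a prior count of 2. Intervals are 95%. Depth was 32556304 to 38069151, and a gene at 0 could still have had up to 3 counts, which is 0.0788 to 0.0921 CPM, for counting error only. Tests were tried on simulated counts. DESeq2 1.42.0, limma 3.58.1 (voom), RLE and upper quartile normalization, normalization without choroid plexus genes, other filters, the run of library numbers and each library left out were the alternatives. The members, lists and tests were chosen with earlier results of these data known. All 10 members are named, with some genes of the list of 41 and the 10 genes most like the members. From the other lists the called gene, Gal, is named, with Foxj1, Rpe65, Tyr, Mlana, Rlbp1, Tph1, Aanat and Asmt. The remaining genes of those lists were counted only. Gigyf2 was named after its overlap was seen.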

Additional observations from a re-analysis of the deposited data

How the results depend on the processing

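Of the 10 genes, 0 were called under every alternative fitted (the filter on all 7 libraries tested 9, without Kcnj13), and their median log2 fold change stayed negative, from -0.91 to -0.29 with a library left out, at -0.58 with DESeq2, -0.41 with limma-voom and -0.64 with the run of numbers fitted. Genes called over the whole table numbered 954, and 1734 with DESeq2 and 2205 with the run fitted, and ran from 302 to 971 with a library left out. Further choroid plexus genes called were 3 with DESeq2, 4 with the run fitted, 0 without a filter, and 0 to 1 with a library left out. Clic6 (-0.49 to 0.055 with a library left out) changed sign without control library 2 and within libraries 10 to 13 (0.14, or 0.15 as a ratio of mean counts), Kcnj13 in limma-voom (0.25) and within libraries 2, 3 and 5 (0.60), and Slc4a5 (-0.13 to 0.56) without control library 3 (-0.03), without mutant library 12 (-0.13) and within libraries 2, 3 and 5 (-0.38, or -0.66 as a ratio of means). Aqp1 (-0.19 to 0.26) changed sign with the run fitted (-0.11), without control library 3 (-0.19), mutant library 12 (-0.14) or mutant library 13 (-0.08), and within libraries 2, 3 and 5 (-0.19, or -0.29 as a ratio of means). There the difference of mean logs was also positive for Trpm3 (0.058) and Prlr (0.070), but as ratios of mean counts, added after the data were seen, Kcnj13 (-0.61), Trpm3 (-0.10) and Prlr (-0.03) kept their sign. For these changes the cause was not tested. No paired analysis was possible because the columns carry a library number and no replicate number. The 95% intervals reached more than 0.5 on the log2 scale to either side of the estimate for 8 of the 10 genes (0.36 to 1.84 over all 10), which limits what could be detected.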
